A study of Mus musculus with 12 samples.

Results

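Open chromatin was described at 9 genes of Nodal signalling and left-right patterning (Nodal, Lefty1, Lefty2, Tdgf1, Cer1, Dand5, Foxh1, Smad2 and Acvr2b) in cells sorted from E7.5 mouse embryos (E, embryonic day). The regions were found by position: a peak belonged to a gene when its midpoint lay nearest to that gene among 21887 protein-coding genes, inside it or at most 100 kb away. In all, 117 of 260693 peaks met this rule, and peaks that overlapped between lists were joined into 44 of 99096 regions. Every embryo used was homozygous for a FoxA2 allele fused to the fluorescent protein tagRFP, on a mixed C57Bl6/J x CD-1 background. In the mutant (dHx) that allele also lacked 10 amino acids of an alpha helix, while in the controls (WT) FoxA2 was otherwise intact. Females were superovulated, the unsexed embryos were pooled without their extraembryonic part, and cells were sorted on tagRFP into High (brighter than any heterozygous cell), Middle (up to the heterozygous maximum) and Negative. The groups were dHx High, dHx Middle, dHx Negative, WT High, WT Middle and WT Negative, with 2 samples each and 2000 to 5000 cells per library. The sort reporter was the altered protein itself, so each gate holds cells by the amount of tagged FoxA2 and not by cell type.

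Nodal is a TGF-β ligand that signals through type I and type II activin receptors together with the co-receptor Cripto, the product of Tdgf1. The activated receptors phosphorylate Smad2, which enters the nucleus with Smad4 and is brought to many targets by the forkhead factor FoxH1. Among those targets are Nodal itself and the Lefty genes, whose products, like Cerberus (Cer1) and Dand5, hold the signal back. In the early mouse embryo this pathway sets the anterior-posterior axis, forms primitive streak and endoderm, and later, from the node, distinguishes left from right.

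The assay was ATAC-seq, which uses a transposase to tag accessible DNA with sequencing adapters, and each group was given as 1 peak list from its pooled samples. With 1 list per group no difference between groups was tested, and no spread between replicates is known. A peak that is missing from a list is a peak that did not pass the authors' threshold there, which depends on depth. The background fitted to the peak scores, a stand-in for relative depth, was 0.476 mean pileup per base in dHx High, 0.786 in dHx Middle, 1.57 in dHx Negative, 0.879 in WT High, 1.5 in WT Middle and 1.08 in WT Negative. The weakest peaks were 6.30-fold over this background in dHx High, 5.09-fold in dHx Middle, 3.83-fold in dHx Negative, 4.55-fold in WT High, 4.01-fold in WT Middle and 4.62-fold in WT Negative. In the same order, the lowest peak scores were 2.64, 2.43, 2.24, 2.19, 2.35 and 2.46, and a peak with such a score only just passed. As a check of the sort, 8 endoderm and node loci (Foxa2, Sox17, Foxa1, Cdh1, Krt8, Krt18, Noto and Shh) were counted, each with at least 1 peak in every list. Together they had 62, 61 and 38 peaks in the High, Middle and Negative cells of dHx and 69, 58 and 30 in those of WT. The whole lists held 37129, 39121 and 50424 peaks in dHx and 45689, 48761 and 39569 in WT, in the same order. Not every locus followed the order of the summed marker peaks. Foxa2 had its most peaks in Middle cells of both genotypes (16, 20 and 15 in dHx and 16, 19 and 11 in WT). So did Sox17 (6, 8 and 6) and Cdh1 (9, 10 and 3) in dHx, and Krt8 in WT had 7, 3 and 5. For 6 mesoderm loci (Hand1, Prrx1, Tbx6, Mesp1, Snai1 and Msgn1) the peaks of High, Middle and Negative cells numbered 7, 13 and 20 in dHx and 10, 7 and 20 in WT. Hand1 was at 0 in dHx High, WT High and WT Middle, and Msgn1 at 0 in both High and both Negative lists. Hand1 and Prrx1 gave 6 and 7 of the 20 peaks in WT Negative. Tbx6 (2, 1 and 1) and Mesp1 (3, 2 and 2) had more peaks in WT High than in WT Negative. The 5 loci of extraembryonic ectoderm and trophoblast (Elf5, Cdx2, Gata3, Tfap2c and Krt7), tissues of the part removed at dissection, had 17, 11 and 29 in dHx and 16, 13 and 20 in WT, with Krt7 at 0 in both Negative lists. The 4 blood and endothelial loci (Gata1, Runx1, Kdr and Tal1) had 10, 12 and 21 in dHx and 22, 15 and 8 in WT, with Gata1 at 0 in all dHx lists and in WT Negative. Most of these peaks in each list were at Runx1 (8, 7 and 12 in dHx and 15, 12 and 5 in WT). Tal1 had its most WT peaks in the Negative list (1, 0 and 2). How far the mix of cell types set the differences below was not tested. In sorted pools, fewer cells with an open region and a region less open in each cell cannot be told apart. The Foxa2 locus had 16 peaks in dHx High and 16 in WT High, and a deletion of 10 codons is too short to show in a peak list.

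Promoter sequences show where the peaks sat at 4 of the genes, from peaks in every list to a peak in 1 list. Each window runs from 250 bases before to 50 bases after the annotated transcription start and comes from RefSeq on GRCm38.p6 (mm10), 5′ to 3′ on the gene's strand. Capitals mark the bases that lay inside a peak in every list that had a peak in the window. For Cer1 and Acvr2b that is all 6 lists, for Nodal it is WT High alone and for Dand5 dHx Middle alone. Peaks of dHx High, dHx Middle, WT Middle and WT Negative began past the Nodal window, 0.231 to 0.535 kb after the transcription start. The windows are chr4:82885102-82885401 on the minus strand (Cer1), chr9:119401928-119402227 on the plus strand (Acvr2b), chr10:61417722-61418021 on the plus strand (Nodal) and chr8:84822774-84823073 on the minus strand (Dand5).
Cer1: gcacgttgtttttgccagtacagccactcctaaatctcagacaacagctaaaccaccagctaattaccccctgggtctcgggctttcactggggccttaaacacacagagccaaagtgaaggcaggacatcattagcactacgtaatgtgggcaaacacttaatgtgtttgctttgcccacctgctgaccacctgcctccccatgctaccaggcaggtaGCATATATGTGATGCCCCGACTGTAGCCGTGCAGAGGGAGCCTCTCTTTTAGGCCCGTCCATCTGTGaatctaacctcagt
Acvr2b: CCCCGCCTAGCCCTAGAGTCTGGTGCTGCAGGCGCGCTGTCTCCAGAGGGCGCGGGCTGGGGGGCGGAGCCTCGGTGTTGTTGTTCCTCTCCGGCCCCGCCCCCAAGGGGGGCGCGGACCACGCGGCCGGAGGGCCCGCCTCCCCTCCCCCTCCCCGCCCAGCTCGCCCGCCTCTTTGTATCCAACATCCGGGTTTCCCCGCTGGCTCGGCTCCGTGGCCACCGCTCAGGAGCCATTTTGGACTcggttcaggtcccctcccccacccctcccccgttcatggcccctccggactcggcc
Nodal: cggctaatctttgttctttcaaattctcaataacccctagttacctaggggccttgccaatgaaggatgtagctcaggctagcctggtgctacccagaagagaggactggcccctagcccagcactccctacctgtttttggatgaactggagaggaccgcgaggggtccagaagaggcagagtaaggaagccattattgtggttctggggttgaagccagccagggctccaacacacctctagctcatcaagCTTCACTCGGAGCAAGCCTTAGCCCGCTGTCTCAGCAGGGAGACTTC
Dand5: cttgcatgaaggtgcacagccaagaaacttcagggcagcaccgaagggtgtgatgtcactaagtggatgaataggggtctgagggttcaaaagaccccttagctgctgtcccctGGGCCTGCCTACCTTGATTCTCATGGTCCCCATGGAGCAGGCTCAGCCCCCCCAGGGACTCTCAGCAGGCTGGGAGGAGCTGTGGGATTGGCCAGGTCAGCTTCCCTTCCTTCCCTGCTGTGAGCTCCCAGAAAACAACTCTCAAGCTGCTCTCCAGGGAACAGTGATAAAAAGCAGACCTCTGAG

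Of the 300 bases, 67 in Cer1 and 244 in Acvr2b lay in a peak in all 6 lists, 47 in Nodal lay in the WT High peak and 186 in Dand5 lay in the dHx Middle peak. The window of Tdgf1 (chr9:110946109-110946408, minus strand) held no peak in any list, so 2 of the 5 windows at hand had a peak in dHx High, 3 in dHx Middle, 2 in dHx Negative, 3 in WT High, 2 in WT Middle and 2 in WT Negative. Between 34.3% (WT Middle) and 38.9% (dHx High) of all 32851 such windows held a peak. The windows were searched on both strands for the forkhead words TGTTTAC and TATTTAC, the FOXH1 words AATCCACA and AATNCACA (every AATCCACA is also an AATNCACA), and the SMAD palindrome GTCTAGAC with its neighbour GTCTGGAC. None of the 5 windows held any of these words, which occur in 3.65%, 3.04%, 0.855%, 3.60%, 0.213% and 0.871% of all windows in that order. The forkhead word TGTTTGC, added after the sequences were seen together with TATTTGC, occurs in the Cer1 window and in 5.07% of all windows, while TATTTGC is in none of the 5 and in 2.76% of all. Both of its matches in Cer1, 1 on each strand, lie outside the stretch in capitals, which ends on that side with the WT Negative peak. Both lie inside the peak of every list but WT Negative.

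Across the 9 genes, regions ranged from those with a peak in every list to those with a peak in 1 list. Of the 44 regions, 6 (13.6%, Clopper-Pearson 95% interval 5.17 to 27.4, counting error only) were in all 6 lists, beside 14.8% of 87332 regions near any protein-coding gene. In a single list were 14 regions (31.8%, 18.6 to 47.6), beside 43.9% of all. Both intervals included the share of all genes. The 6 regions found everywhere lay at the starts of Acvr2b and Cer1, at the low-coordinate end of Smad2, between Foxh1 and its neighbour, and upstream of Nodal and Tdgf1. Ranked by score within their own lists, their 36 peaks had a median percentile of 84.2 (5.47 to 97.4), and the 14 peaks of the regions in a single list a median of 18.5 (4.49 to 55.5). The score is the authors' own value for a peak, taken here to be a p-value or q-value on the −log10 scale. It grows with depth, so it places a peak within its list, and neither scores nor percentiles of lists of different length show a change between lists.

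**Figure D1:**
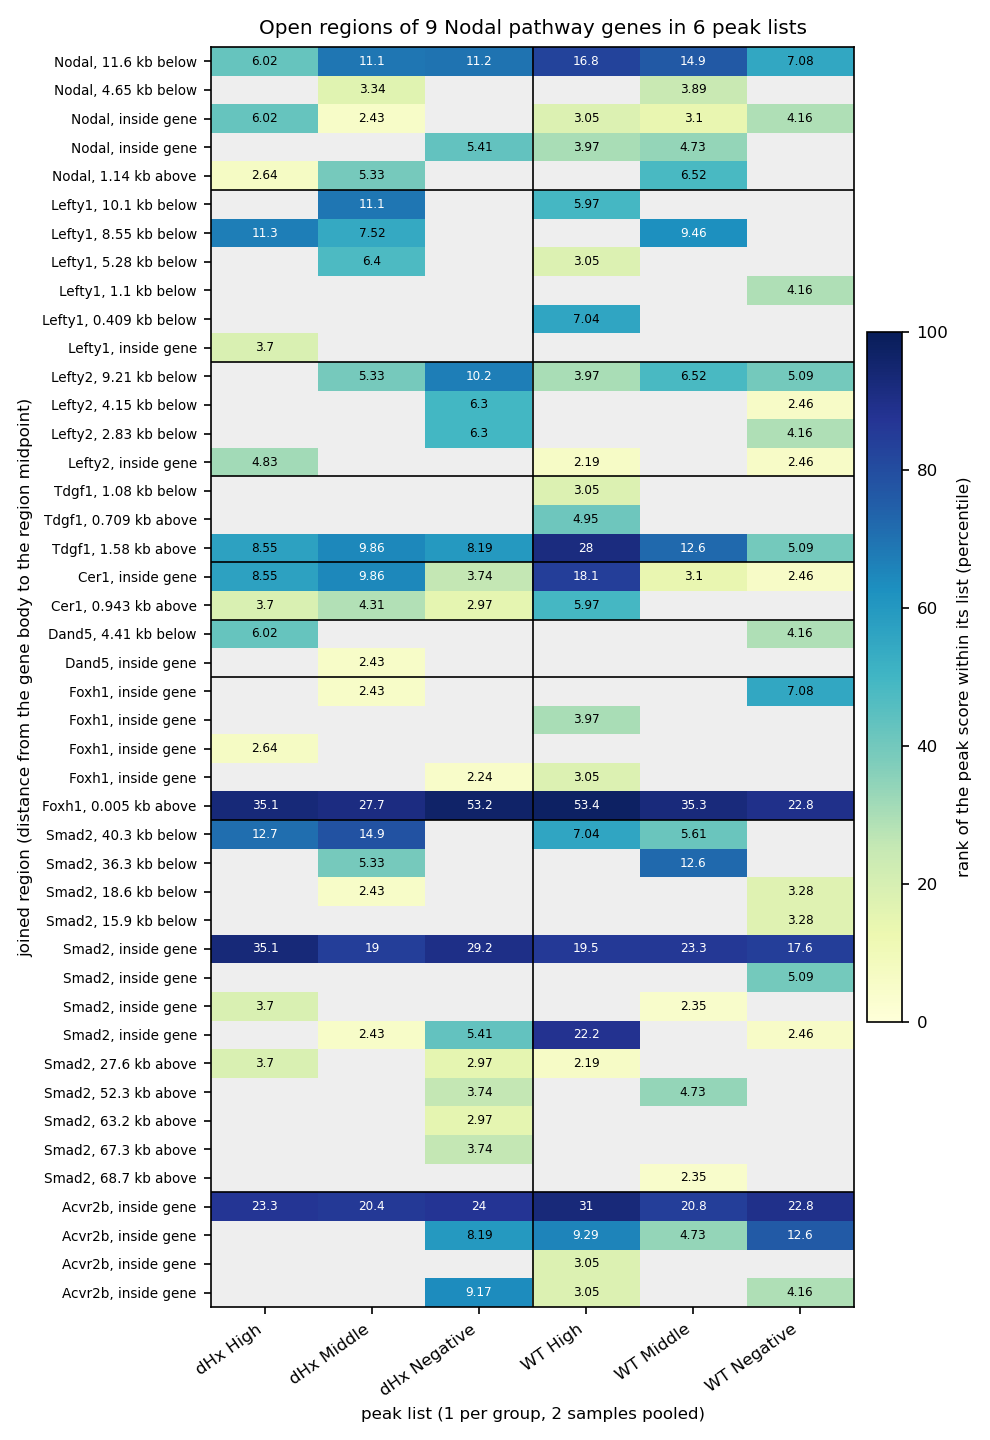
Each row is 1 of the 44 joined regions, with its distance from the gene body (below: towards lower coordinates; above: towards higher) and each column is 1 of the 6 peak lists. Numbers are the authors' peak scores (−log10), colour is the percentile of that score within its list, and grey means no peak. The 6 rows without grey are the regions present in every list, and 14 rows hold a single coloured cell.

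Between 17 and 23 peaks were assigned to the 9 genes in each list: 17 in dHx High, 20 in dHx Middle, 19 in dHx Negative, 23 in WT High, 18 in WT Middle and 20 in WT Negative. These numbers made up between 0.0410% (WT Middle) and 0.0561% (WT High) of the peaks assigned to any gene. The peaks were of ordinary size, with a median width of 461 bases in dHx High and 430 in WT High, beside 460 and 442 for all peaks of those lists. Their median score percentile was below the middle of every list, from 29.2 in WT Negative to 49.4 in dHx Negative. By place, 18 of the 44 regions lay inside a gene, 15 outside it within 10 kb and 11 farther away. The farthest lay 68.7 kb from its gene, and the next peaks with one of the 9 genes as nearest gene, 16 peaks around Smad2, lay 142 kb away or more, beyond the limit.

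**Figure D2:**
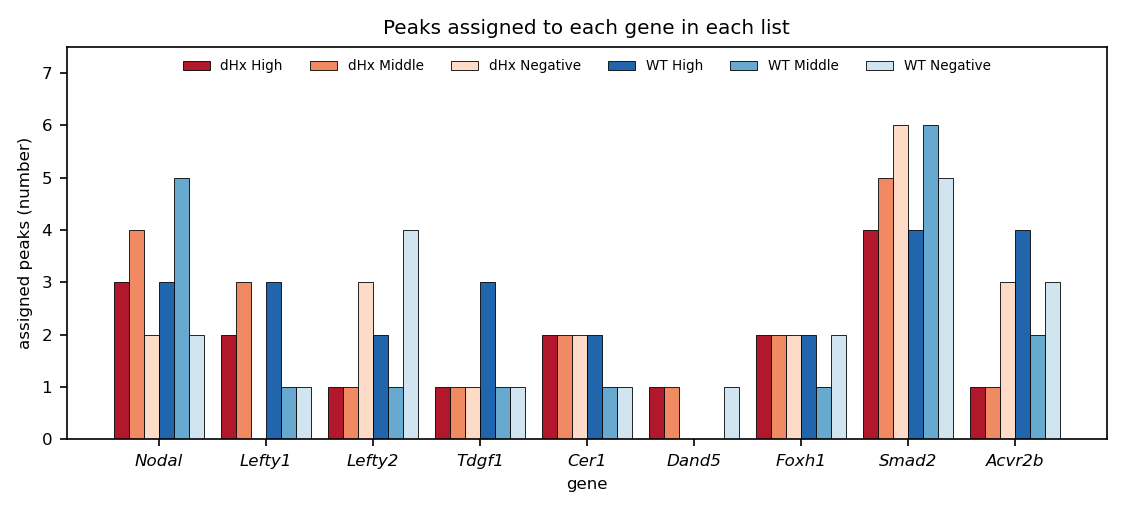
Bars give the number of peaks assigned to each gene (horizontal axis) in each of the 6 lists, in red shades for dHx and blue shades for WT. Lefty1 had no bar in dHx Negative, Lefty2 had its tallest bars in the Negative lists, and Smad2 had between 4 and 6 peaks in every list.

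Nodal, the ligand, had 5 regions (mm10, chromosome 10, gene 61417972 to 61425338, plus strand). Its assigned peaks numbered 3 in dHx High, 4 in dHx Middle, 2 in dHx Negative, 3 in WT High, 5 in WT Middle and 2 in WT Negative, so the Middle list had the most in each genotype. Distances below run from the midpoint of a region to the nearer end of its gene, or to the transcription start where the text says so. One region was open in all 6 populations, and it was not at the transcription start but 11.6 kb upstream of it (chr10:61405885-61406789). Its scores were 6.02 in dHx High, 11.1 in dHx Middle, 11.2 in dHx Negative, 16.8 in WT High, 14.9 in WT Middle and 7.08 in WT Negative. Within their lists these peaks stood at percentile 42.2 in dHx High, 69.0 in dHx Middle, 69.8 in dHx Negative, 82.5 in WT High, 76.5 in WT Middle and 54.8 in WT Negative.

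Just inside Nodal, chr10:61417975-61418847 held peaks in 5 lists and none in dHx Negative. That list had the highest fitted background, and the part of depth here was not tested. The scores there were 6.02 in dHx High, 2.43 in dHx Middle, 3.05 in WT High, 3.10 in WT Middle and 4.16 in WT Negative. Not all of these peaks overlapped each other: the WT High peak ran from 0.003 to 0.474 kb after the start of transcription, and the WT Middle peak from 0.535 to 0.715 kb. A region further into the gene (chr10:61419196-61419515) was present in dHx Negative (5.41), WT High (3.97) and WT Middle (4.73). The remaining regions of Nodal were found in RFP-positive lists alone. One, 4.65 kb upstream of the start (chr10:61413082-61413568), was in dHx Middle (3.34) and WT Middle (3.89), and the other, 1.14 kb beyond the gene's far end (chr10:61426172-61426788), was in dHx High (2.64), dHx Middle (5.33) and WT Middle (6.52). Both were thus open in the Middle gate of both genotypes, and neither had a peak in WT High or in a Negative list.

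Lefty1 and Lefty2 encode secreted antagonists of Nodal and lie 35.9 kb apart on chromosome 1. Lefty1 (180935022 to 180938401) had 2 peaks in dHx High, 3 in dHx Middle, 0 in dHx Negative, 3 in WT High, 1 in WT Middle and 1 in WT Negative. Lefty2 (180893108 to 180899107) had 1 in dHx High, 1 in dHx Middle, 3 in dHx Negative, 2 in WT High, 1 in WT Middle and 4 in WT Negative. Of the Lefty1 peaks, 5 of 5 in dHx and 4 of 5 in WT were in RFP-positive lists, which are 2 of the 3 lists of a genotype, and 3 of 5 Lefty2 peaks in dHx and 4 of 7 in WT were in the Negative list. Counting every peak within 10 kb whatever gene was nearer, Lefty1 had 3, 3 and 2 in the High, Middle and Negative cells of dHx and 3, 2 and 3 in those of WT, with no lean to RFP-positive lists in WT. Lefty2 had 2, 1 and 4 in dHx and 3, 2 and 5 in WT on the same count.

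Of the 9 Lefty1 peaks in RFP-positive lists, 7 stood in 3 regions on the Lefty2 side of the gene, and none of the 3 regions had a peak in a Negative list. The region 8.55 kb from the gene (chr1:180926259-180926683) scored 11.3 in dHx High, 7.52 in dHx Middle, 9.46 in WT Middle, and had no peak in WT High. The region at 10.1 kb (chr1:180924691-180925213) had 11.1 in dHx Middle and 5.97 in WT High, and the region at 5.28 kb (chr1:180929452-180930026) had 6.40 in dHx Middle and 3.05 in WT High. All 3 were thus present in dHx Middle and in 1 of the WT lists. The weakest peaks of dHx Negative were 3.83-fold and those of WT Negative 4.62-fold over the fitted background, and the part of depth in the missing peaks was not tested.

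The other 3 Lefty1 regions were each in a single list. They lay 1.10 kb from the gene in WT Negative (chr1:180933686-180934161, score 4.16), 0.409 kb from it in WT High (chr1:180934459-180934768, score 7.04) and inside it in dHx High (chr1:180936869-180937159, score 3.70). No Lefty1 region was shared by dHx High and WT High. Both dHx High peaks and all 3 WT High peaks lacked a counterpart in the High list of the other genotype. In the Middle list of the other genotype, the dHx High peak at 8.55 kb and the WT High peaks at 10.1 and 5.28 kb did overlap a peak.

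Near Lefty2, 2 regions were found in both Negative lists and in no RFP-positive list. One lay 4.15 kb from the gene (chr1:180888662-180889260), with scores of 6.30 in dHx Negative and 2.46 in WT Negative, the lowest score of the latter list. Its neighbour at 2.83 kb (chr1:180889993-180890568) had 6.30 in dHx Negative and 4.16 in WT Negative. WT Middle, whose weakest peaks were 4.01-fold over background, had no peak in either, and the part of depth in this was not tested. A region at 9.21 kb (chr1:180883499-180884305) was present in every list but dHx High, with scores of 5.33 in dHx Middle, 10.2 in dHx Negative, 3.97 in WT High, 6.52 in WT Middle and 5.09 in WT Negative. Inside Lefty2, chr1:180894122-180894802 had a peak in dHx High (4.83), WT High (2.19) and WT Negative (2.46), the WT scores being the lowest of their lists. The Lefty genes are close copies of each other, and no source used here says how reads that match both were treated.

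**Figure D3:**
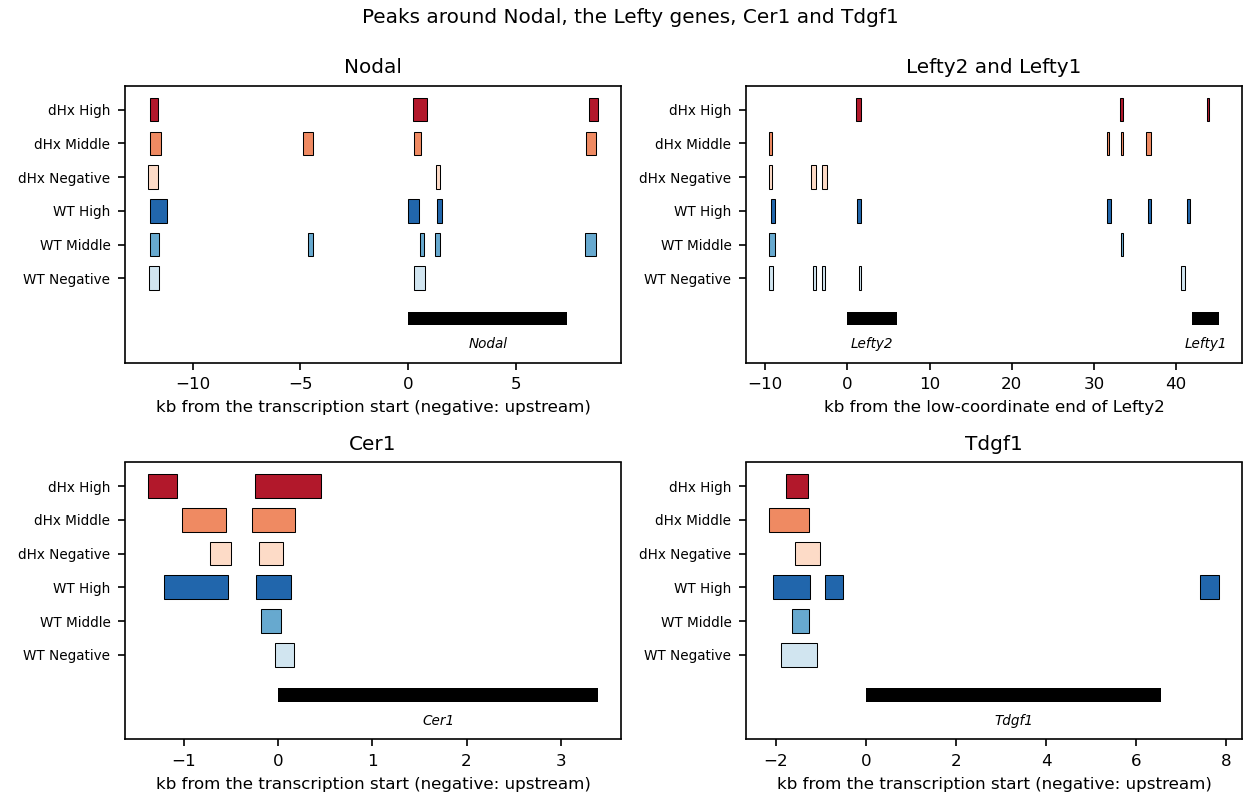
Boxes are peaks in the 6 lists (rows) around Nodal, the Lefty genes, Cer1 and Tdgf1 that were assigned to these genes, and black bars are the genes. The horizontal axis is distance in kb from the transcription start, or from the low-coordinate end of Lefty2. Upstream of Nodal 1 region is present in all 6 rows, between Lefty2 and Lefty1 3 regions hold boxes in more than 1 RFP-positive row and in no Negative row, and all 6 rows have a box at the start of Cer1.

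Cer1 encodes Cerberus, a secreted inhibitor of Nodal made in anterior visceral endoderm and anterior definitive endoderm of the mouse (mm10, chromosome 4, 82881751 to 82885151, minus strand). It had 2 peaks in dHx High, 2 in dHx Middle, 2 in dHx Negative, 2 in WT High, 1 in WT Middle and 1 in WT Negative. The region over its transcription start (chr4:82884699-82885432), which holds the stretch in capitals above, was open in all 6 lists. Its scores were 8.55 in dHx High, 9.86 in dHx Middle, 3.74 in dHx Negative, 18.1 in WT High, 3.10 in WT Middle and 2.46 in WT Negative. Within its list this peak stood at percentile 56.8 in dHx High, 64.8 in dHx Middle, 25.7 in dHx Negative, 84.2 in WT High, 14 in WT Middle and 5.47 in WT Negative. It stood above the middle of its list in both High lists and in dHx Middle, and below it in WT Middle and both Negative lists. In WT Negative it was among the weakest peaks. These places within lists of different length do not show a change between lists.

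A second Cer1 region, 0.943 kb upstream of the start (chr4:82885652-82886536), held peaks in dHx High (3.70), dHx Middle (4.31), dHx Negative (2.97) and WT High (5.97). WT Middle and WT Negative had none. The peaks were joined through the WT High peak, since the dHx High peak (from 82886221) and the dHx Middle peak (to 82886167) did not overlap.

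Dand5, an inhibitor of Nodal that in the mouse node is lowered on the left side, had the fewest peaks (mm10, chromosome 8, 84815405 to 84832265, minus strand). It had 1 peak in dHx High, 1 in dHx Middle, 0 in dHx Negative, 0 in WT High, 0 in WT Middle and 1 in WT Negative. The dHx Middle peak (chr8:84822716-84822959, score 2.43, percentile 5.38 of its list) covered the transcription start. The other region, 4.41 kb outside the gene (chr8:84810785-84811212), had scores of 6.02 in dHx High and 4.16 in WT Negative.

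Tdgf1 encodes the co-receptor Cripto (mm10, chromosome 9, 110939608 to 110946158, minus strand). It had 3 peaks in WT High and 1 in each of the other 5 lists. The region found in all lists lay 1.58 kb upstream of the start (chr9:110947168-110948319), with scores of 8.55 in dHx High, 9.86 in dHx Middle, 8.19 in dHx Negative, 28.0 in WT High, 12.6 in WT Middle and 5.09 in WT Negative. It stood at percentile 56.8 of dHx High and 91.7 of WT High. The other regions were in WT High alone, 0.709 kb upstream of the start (chr9:110946669-110947065, score 4.95) and 1.08 kb beyond the far end of the gene (chr9:110938310-110938739, score 3.05). Their scores lay in the lower part of that list, at percentiles 40.9 and 18.0.

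Acvr2b, a type II receptor for activins and Nodal, had 4 regions, all inside the gene (mm10, chromosome 9, 119401583 to 119442148, plus strand). Its peaks numbered 1 in dHx High, 1 in dHx Middle, 3 in dHx Negative, 4 in WT High, 2 in WT Middle and 3 in WT Negative. The start region (chr9:119401535-119402507) scored 23.3 in dHx High, 20.4 in dHx Middle, 24.0 in dHx Negative, 31.0 in WT High, 20.8 in WT Middle and 22.8 in WT Negative. Its percentile lay between 84.1 in WT Middle and 92.9 in WT High.

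The next Acvr2b region, 1.37 kb past the start (chr9:119403315-119403781), was missing from dHx High and dHx Middle. These lists had the lowest fitted background, and the part of depth in the missing peaks was not tested. It scored 8.19 in dHx Negative, 9.29 in WT High, 4.73 in WT Middle and 12.6 in WT Negative. A region 23.3 kb past the start (chr9:119425317-119425704) scored 9.17 in dHx Negative, 3.05 in WT High and 4.16 in WT Negative, and one at 13.4 kb (chr9:119415460-119415720) was in WT High alone (3.05). Of the 4 WT High peaks, 3 had no dHx High peak.

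Smad2, the signal transducer, had the most regions, 13, of which 4 lay inside the gene and 9 more than 10 kb outside it (mm10, chromosome 18, 76241090 to 76311748). It had 4 peaks in dHx High, 5 in dHx Middle, 6 in dHx Negative, 4 in WT High, 6 in WT Middle and 5 in WT Negative. At its low-coordinate end a region of 1511 bases (chr18:76240888-76242398), the widest of the 44, scored 35.1 in dHx High, 19.0 in dHx Middle, 29.2 in dHx Negative, 19.5 in WT High, 23.3 in WT Middle and 17.6 in WT Negative. Its percentile lay between 84.2 in dHx Middle and 93.2 in dHx High.

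A region 40.3 kb below Smad2 (chr18:76200443-76201048) was the only 1 of the 44 with a peak in all 4 RFP-positive lists and none in the Negative lists. Its scores were 12.7 in dHx High, 14.9 in dHx Middle, 7.04 in WT High and 5.61 in WT Middle. A neighbour at 36.3 kb (chr18:76204542-76204969) was in dHx Middle (5.33) and WT Middle (12.6). A region inside the gene (chr18:76245521-76245898) was in dHx High (3.70) and WT Middle (2.35, the lowest score of that list). Another inside region (chr18:76268473-76269292) stood at percentile 88.2 of WT High with a score of 22.2, and had scores of 2.43 in dHx Middle, 5.41 in dHx Negative and 2.46 in WT Negative and no peak in dHx High or WT Middle. The 8 remaining regions were in 1 to 3 lists each, and 5 of the 13 in a single list.

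Foxh1 encodes the forkhead partner of Smad2 (mm10, chromosome 15, 76667829 to 76671614). Its strongest region (chr15:76671197-76672042) spans the 28 bases between Foxh1 and Ppp1r16a, so it cannot be given to either gene. It was present in all 6 lists, with scores of 35.1 in dHx High, 27.7 in dHx Middle, 53.2 in dHx Negative, 53.4 in WT High, 35.3 in WT Middle and 22.8 in WT Negative. The WT High peak counted for Ppp1r16a, since its midpoint lay 18 bases from Foxh1 and 11 bases from Ppp1r16a, so the 2 Foxh1 peaks counted in WT High do not include it. The other 4 Foxh1 regions lay inside the gene in 1 or 2 lists each, with scores from 2.24 in dHx Negative to 7.08 in WT Negative.

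The comparison of dHx with WT at each RFP level asked where open regions differ in embryos whose FoxA2 lacks the helix. In High cells, 6 of 17 dHx peaks had no WT peak (35.3%, 14.2 to 61.7), beside 30.0% of all dHx High peaks near a gene, and 13 of 23 WT peaks had no dHx peak (56.5%, 34.5 to 76.8), beside 40.9% of all. More peaks in dHx alone were found at 1 gene (Dand5, 1 of 1 against 0 of 0) and more in WT alone at 5, namely Acvr2b (0 of 1 against 3 of 4), Tdgf1 (0 of 1 against 2 of 3), Lefty1 (2 of 2 against 3 of 3), Lefty2 (0 of 1 against 1 of 2) and Foxh1 (1 of 2 against 2 of 2). Nodal, Cer1 and Smad2 had equal numbers. The WT share stood above that of all genes, but its interval included it. With all lists reduced to the strongest peaks at equal length the shares were 47.1% of 17 dHx peaks and 55.6% of 18 WT peaks, and with every peak within 100 kb taken, whatever gene was nearer, they were 20.8% of 77 dHx peaks and 33.3% of 96 WT peaks. For these alternatives the shares of all genes were not computed.

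In Middle cells, 7 of 20 dHx peaks had no WT peak (35.0%, 15.4 to 59.2, beside 30.1%) and 5 of 18 WT peaks had no dHx peak (27.8%, 9.69 to 53.5, beside 42.4%). Here 4 genes had more peaks in dHx alone and 3 more in WT alone, with Lefty1 at 2 of 3 against 0 of 1 and Smad2 at 2 of 5 against 3 of 6. In Negative cells, 7 of 19 dHx peaks had no WT peak (36.8%, 16.3 to 61.6, beside 43.3%) and 8 of 20 WT peaks had no dHx peak (40%, 19.1 to 63.9, beside 27.8%). In the Negative lists 2 genes stood on the dHx side and 3 on the WT side, with Smad2 at 4 of 6 against 3 of 5. Acvr2b, with 3 WT-only peaks in High cells, had 0 of 1 against 1 of 2 in Middle cells. In Negative cells it had 0 of 3 against 0 of 3. All 6 intervals included the share of all genes. The Middle shares moved to 65.0% of dHx peaks and 61.1% of WT peaks when 50% of both peaks had to overlap. Under that stricter rule the share of all genes was not computed. No WT Middle peak with a score of at least 5 (0 of 10) lacked a dHx Middle peak. With this score limit, too, the share of all genes was not computed. No region was in 2 or more dHx lists and no WT list, and none in 2 or more WT lists and no dHx list, which allows a share of up to 6.82% of 44 regions each, beside 2.45% and 2.87% of all regions.

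**Figure D4:**
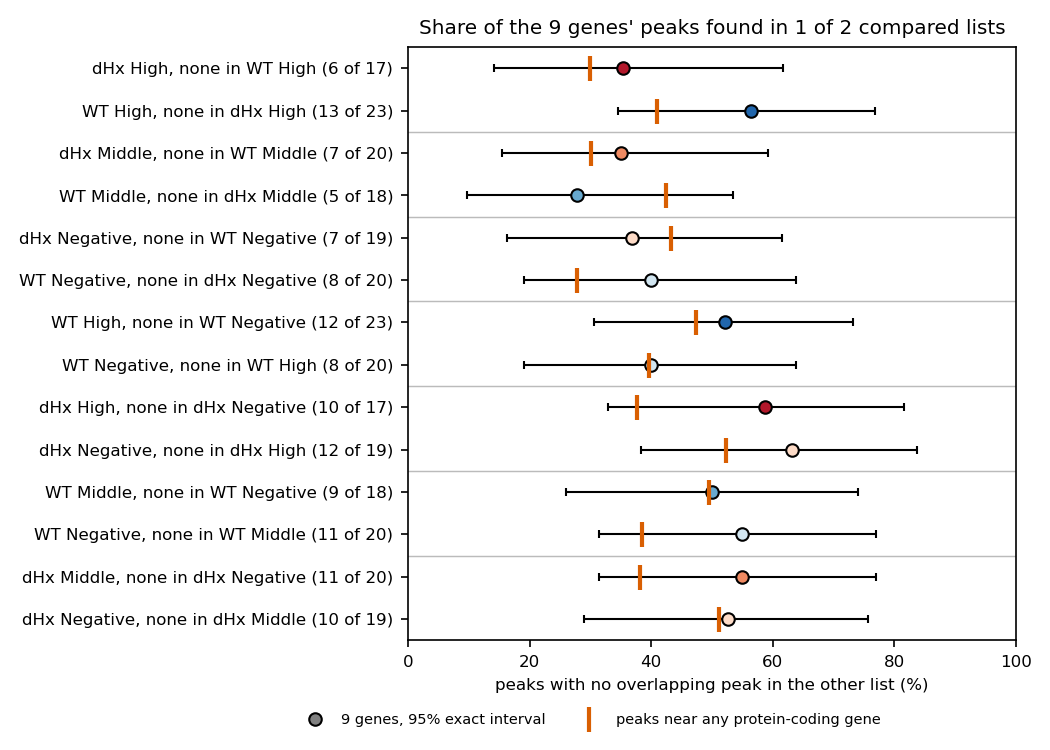
Points give the share of the 9 genes' peaks in the first-named list that had no overlapping peak in the other list, with 95% exact intervals. Orange bars give the same share over peaks near any protein-coding gene. Every interval includes its orange bar, and the widest distance between point and bar is at dHx High against dHx Negative (58.8% against 37.7%).

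The comparison of High with Negative asked which regions were open in cells with the most tagged FoxA2. In WT, 12 of 23 High peaks had no Negative peak (52.2%, 30.6 to 73.2, beside 47.4%) and 8 of 20 Negative peaks had no High peak (40%, 19.1 to 63.9, beside 39.7%). Lefty1 (3 of 3 against 1 of 1), Tdgf1 (2 of 3 against 0 of 1) and 4 other genes had more High-only peaks, and Lefty2 (0 of 2 against 2 of 4), Dand5 (0 of 0 against 1 of 1) and Smad2 (2 of 4 against 3 of 5) more Negative-only peaks. When 50% of both peaks had to overlap, these shares were 78.3% of WT High and 70.0% of WT Negative peaks. Other genes of the pathway, listed below, then had 71.4% and 66.7%, and the share of all genes was not computed under this rule. In dHx, 10 of 17 High peaks had no Negative peak (58.8%, 32.9 to 81.6, beside 37.7%) and 12 of 19 Negative peaks had no High peak (63.2%, 38.4 to 83.7, beside 52.3%). Lefty1 (2 of 2 against 0 of 0) again stood on the High side and Lefty2 (1 of 1 against 3 of 3) on the Negative side. With every peak within 100 kb taken, the share of dHx Negative peaks with no dHx High peak was 37.2%, and the share of all genes was not recomputed.

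For Middle against Negative, 9 of 18 WT Middle peaks had no Negative peak (50.0%, 26.0 to 74.0, beside 49.5%), and 11 of 20 WT Negative peaks had no Middle peak (55.0%, 31.5 to 76.9, beside 38.5%). In dHx these were 11 of 20 Middle peaks (55.0%, 31.5 to 76.9, beside 38.1%) and 10 of 19 Negative peaks (52.6%, 28.9 to 75.6, beside 51.2%). In WT 2 of the 9 genes had more Middle-only peaks, 4 more Negative-only peaks and 3 equal numbers, and in dHx each of these held for 3 genes. Nodal had 3 of 5 Middle-only against 0 of 2 Negative-only peaks in WT and 3 of 4 against 1 of 2 in dHx, and Lefty2 had 0 of 1 against 3 of 4 in WT and 0 of 1 against 2 of 3 in dHx. Over the 4 RFP-positive and 2 Negative lists, 8 of 44 regions were in at least 2 RFP-positive lists and no Negative list (18.2%, 8.19 to 32.7, beside 12.2%). They belonged to Nodal (2), Lefty1 (3) and Smad2 (3). The 2 regions in both Negative lists alone (4.55%, 0.555 to 15.5, beside 2.72%) were those of Lefty2. Both intervals included the share of all genes.

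A further 25 genes of the pathway served as a comparison: ligands and co-receptors, receptors, Smads and their modulators, convertases, targets and left-right genes. They had 85 peaks in dHx High, 104 in dHx Middle, 105 in dHx Negative, 91 in WT High, 101 in WT Middle and 78 in WT Negative. Of their 207 regions 31 (15.0%, 10.4 to 20.6) were in all 6 lists, beside 13.6% at the 9 genes and 14.8% of all. In High cells 25 of 85 dHx peaks were dHx-only (29.4%, 20.0 to 40.3, beside 30.0% of all). Of the 91 WT peaks 29 were WT-only (31.9%, 22.5 to 42.5, beside 40.9% of all). Both intervals included the share of all genes, with 8 genes on either side and 8 equal. Among those on the dHx side were Bicc1, an RNA-binding protein (2 of 7 against 0 of 5), Acvr1b, a type I receptor of Nodal (2 of 4 against 0 of 2), and Eomes (2 of 8 against 1 of 6). On the WT side were Smad4, the common partner of receptor Smads (0 of 3 against 4 of 8), Smad3 (2 of 8 against 4 of 10), Gsc (3 of 4 against 5 of 6), Lhx1 (0 of 4 against 2 of 6) and Cfc1, the other co-receptor of Nodal in the mouse (0 of 1 against 2 of 4).

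For WT High against WT Negative, 44 of 91 peaks of the 25 genes were High-only (48.4%, 37.7 to 59.1, beside 47.4% of all). Negative-only were 32 of 78 peaks (41.0%, 30.0 to 52.7, beside 39.7% of all). Both intervals included the share of all genes. By gene, 11 had more High-only peaks, 6 more Negative-only peaks and 7 equal numbers. Smad3, the close relative of Smad2, had the largest net number on the High side (8 of 10 against 0 of 3), followed by Smad7, an inhibitory Smad (4 of 6 against 1 of 2), Smad4 (2 of 8 against 0 of 5), Lhx1 (4 of 6 against 2 of 4) and Trim33 (2 of 4 against 0 of 2). Eomes, a T-box factor downstream of Nodal, had the largest on the Negative side (2 of 6 against 8 of 12). The homeobox gene Gsc (5 of 6 against 6 of 7), Acvr1c (0 of 3 against 1 of 4) and Ski (0 of 3 against 1 of 4) also stood on that side.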

How the data were processed

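ATAC-seq was made from 12 samples in 6 groups of 2, and groups were taken from the sample titles. Per the labels' protocols, libraries were sequenced paired-end. The submitters' processing notes name MACS2, STAR 2.5.2a and mm10, and no source used here gives their settings. The authors deposited 1 peak list per group, and each peak name reads Pooled and unique as well as Aligned and Filtered. The unnamed score column of the deposited lists was read, from its values, as a −log10 p-value or q-value. Counts of reads were not used here.

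Lines with the same start and end were merged, keeping the highest score. Midpoints were assigned to the nearest RefSeq protein-coding gene (GRCm38.p6) within 100 kb, peaks sharing 1 bp or more counted as found in both lists, and overlapping peaks of all lists were joined (Python 3.11.15, pandas 2.3.3, SciPy 1.17.1). The background was the Poisson mean fitted to steps between the 40 lowest scores, and stands for relative depth only if the peak caller ran alike on all lists. Shares carry Clopper-Pearson 95% intervals. Functions were tested on simulated data. Coordinates are 1-based.

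The 9 genes, the 25 pathway genes and the marker lists were chosen with earlier results of these data known. All regions of Nodal, Lefty1, Lefty2 and Cer1 were to be described. For the other genes these were the nearest region, those in all lists and those in 2 or more lists of 1 kind alone, and further regions were chosen after their values were seen. Of the pathway genes, those with the 5 highest and 5 lowest net numbers were named, with ties broken by number of peaks and then by name, except some that are not reported here. Promoter windows were found for 5 of the 9 genes. No proteins or genome sequence were used.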

Additional observations from a re-analysis of the deposited data

How the results depend on the processing

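No paired analysis was possible because each group was given as 1 list of pooled samples, and for the same reason no replicate was left out. Of 150 values recomputed under 6 alternatives, 117 stayed within 1.5 times (counts) or within the 95% interval (shares), among them all 26 with a 50 kb limit. Joining by summits within 150 bp was not run, since the lists give no summit positions. With reciprocal overlap of 50%, the 44 regions became 67 and those in all 6 lists 2, and lone shares rose to 65.0% (dHx Middle) and 61.1% (WT Middle) between genotypes and to 78.3% (WT High) and 70.0% (WT Negative) between levels. The pathway list then had 49.4% dHx-only and 51.6% WT-only in High cells, and 71.4% High-only and 66.7% Negative-only in WT. The shares of all genes were not computed under this rule or any other of the 6 alternatives. With lists of equal length, dHx Negative kept 12 peaks of the 9 genes, and 22.1% of pathway peaks were WT-only in High cells. With a score of at least 5 the peaks numbered 10 in dHx High, 13 in dHx Middle, 12 in dHx Negative, 11 in WT High, 10 in WT Middle and 9 in WT Negative, the regions 25, and no WT Middle peak (0 of 10) lacked a dHx Middle peak. With every peak within 100 kb taken, whatever gene was nearer, they numbered 77, 78, 78, 96, 84 and 88 in the same order, in 158 regions of which 34 were in all lists. The WT-only share in High cells was then 33.3%, below the 40.9% of all genes by the main rule, and the dHx Negative share without dHx High 37.2%. With all genes of the table as competitors, dHx Middle had 13 peaks, and the WT pathway shares were 35.2% High-only and 28.6% Negative-only. These alternatives differ by construction in the peaks counted. Intervals of about 20 peaks per list are wide. The weakest peaks stood highest over the fitted background in dHx High (6.30-fold), and the part of depth in missing weak peaks was not tested.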
